A study of Rattus norvegicus with 3 samples.

Results

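The genes described here encode the proteins of the 2 ribosomes of rat cells, followed through balloon injury of the common carotid artery. Members were chosen by name alone, as symbols that begin with Rpl, Rps, Mrpl or Mrps and a number, without the Rps6k kinases. Of 15301 named genes on the arrays, 144 met this rule: 48 Rpl, 30 Rps, 42 Mrpl and 24 Mrps genes. Rpl and Rps symbols are named after the large and small subunit of the cytosolic ribosome. Mrpl and Mrps symbols are named after the large and small subunit of the mitochondrial ribosome, and the name need not give the subunit of every protein. The arrays hold only part of the 1254 rat symbols that fit the rule, 879 of which RefSeq lists as pseudogenes. Whole carotid arteries of male Wistar rats were profiled in 3 groups of 1 array each: uninjured arteries, arteries at day 7 after balloon injury and arteries at day 21 after it. No other genotype or agent is named in the labels, and the age of the animals is not given there. Balloon injury strips the endothelium and stretches the wall, and a new inner layer then grows over the following weeks. With 1 array a group no test of a difference is possible. Each ratio compares 2 arrays. Its ± value, the replicate-spot SD, is read at the gene's signal from probes spotted at least 3 times on each array. The values of both arrays are combined, and it is not measured on each gene's own spots. It covers only the technical spread on an array, and the spread between animals is unknown. In tissue RNA, fewer cells of a type and less RNA per cell cannot be told apart.

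The cytosolic ribosome makes nearly all proteins of a cell from nuclear messengers. Its proteins are needed in equal numbers, and their messengers are among the most abundant of any cell. Most of these messengers start with a C followed by a run of pyrimidines, the 5′ terminal oligopyrimidine (TOP) tract, through which the mTOR pathway controls their translation. The mitochondrial ribosome makes the few proteins encoded by mitochondrial DNA, all of them subunits of the respiratory chain and ATP synthase, although its own proteins are encoded in the nucleus and imported. In an artery wall that switches from contraction to growth, both sets are of interest because dividing cells must double their ribosomes.

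The start sites below are shown because the TOP tract is the best known sequence feature of cytosolic ribosomal protein genes. They are the 60 bases around the start of the genes at the ends of the day 21 ratios, from 40 bases before to 20 bases after the start annotated by RefSeq on GRCr8, and capitals mark the TOP-like run. Such a run was scored as a C followed by at least 6 pyrimidines on the strand of the gene, within 50 bases on each side of the start.
Rpl14 (chr8:129163580-129163639, plus strand): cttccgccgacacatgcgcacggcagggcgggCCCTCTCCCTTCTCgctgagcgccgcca
Rpl27a (chr1:172974533-172974592, plus strand): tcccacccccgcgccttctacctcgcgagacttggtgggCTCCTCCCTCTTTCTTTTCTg
Rps16 (chr1:92770618-92770677, plus strand): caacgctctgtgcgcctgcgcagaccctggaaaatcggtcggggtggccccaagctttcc
Rps13 (chr1:180009641-180009700, minus strand): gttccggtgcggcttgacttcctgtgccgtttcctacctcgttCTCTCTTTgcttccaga
Rpl22l1 (chr2:113683156-113683215, plus strand): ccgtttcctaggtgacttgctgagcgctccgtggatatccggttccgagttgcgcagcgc
Mrpl12 (chr10:106256706-106256765, plus strand): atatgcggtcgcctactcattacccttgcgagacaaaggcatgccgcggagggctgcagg
Mrpl45 (chr10:82804999-82805058, plus strand): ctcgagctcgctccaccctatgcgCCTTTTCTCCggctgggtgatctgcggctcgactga
Rpl14 and Rpl27a were the lowest Rpl genes at day 21 and Rps16 was among the lowest Rps genes, while Rps13 and Rpl22l1 were the highest of their families. Mrpl12 was the lowest and Mrpl45 the highest of the mitochondrial members. A TOP-like run was found at 53 of 62 cytosolic members with a RefSeq start region (85.5%), at 23 of 54 mitochondrial members (42.6%) and at 40.6% of all 27457 start regions. The exact letters CCGGAAG, a binding sequence of ETS factors, were searched on both strands from 250 bases before the start to 50 after it. They were found at 29.0% of cytosolic, 35.2% of mitochondrial and 9.22% of all regions. AAGATGGC, a YY1 sequence, was found at 8.06%, 22.2% and 3.44% and TATAAA at 9.68%, 13.0% and 14.3%. These matches are descriptions of letters and not of bound sites.

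The uninjured and day 21 arrays shared 1 design, 1 scan and 1 software version, and were compared on all their probes. The third array, at day 7, had a different design, scan and software version, so time and these technical differences cannot be told apart, and day 7 was compared only on the 10602 probes that all 3 arrays carry. Levels are log2 signals minus the array's own 75th percentile, taken over all probes for the first comparison and over the shared probes wherever day 7 enters, so that the levels of a gene differ between these settings. Probes well above background made up 59.8% to 76.5% of each array, and the raw 75th percentile was lowest on the uninjured array at 49.6 intensity units, against 210 at day 7 and 135 at day 21. All 7 smooth muscle markers with a probe were well above background on the uninjured and day 21 arrays, so their detection does not tell these labels apart. Between uninjured and day 21 their summed level went from 9.25 to 6.92 (7 of 7 at least 2-fold lower), that of macrophage and leukocyte markers from 5.13 to 9.77 (8 of 8 measured on both arrays higher, Itgam and Itgb2 not above background in the uninjured artery), and that of dividing-cell markers from 0.85 to 3.97 (4 of 4 higher). On shared probes the smooth muscle sum was 7.43 in the uninjured artery and 5.22 at day 7 (3 of 4 lower), the leukocyte sum 2.77 and 6.80 (5 of 5 higher) and the dividing-cell sum -0.51 and 4.63 (4 of 4 higher). Endothelial markers were higher at day 7 (3 of 3) and at day 21 (3 of 4), and Schwann and nerve markers were higher at day 7 (3 of 3) but not at day 21 (0 of 5 higher, 1 lower). Of striated muscle markers 2 of 4 were lower at day 21 (Ckm -4.01 and Acta1 -2.26, summed level from 4.14 to 2.38, Myh1 not above background on either array) and 1 of 2 at day 7. Within 2-fold at day 21 were Mb (-0.54) and Tnnt3 (0.56), the latter of opposite sign. Of adipocyte markers Fabp4, which other cells also express, was higher at day 21 (3.91) and at day 7 (1.81), Adipoq had 0.43 at day 21, and Lep and Cidec were not above background at day 21 or in the uninjured artery. The part of these cell types in the ribosomal ratios was not tested.

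At day 21 the cytosolic ribosomal protein genes were lower than in the uninjured artery as one narrow band. Of 76 cytosolic members on this design 75 were well above background on both arrays, and their median log2 ratio was -0.52 (1.43-fold lower), with quartiles of -0.74 and -0.36, beside a median of -0.20 over all 9427 genes measured. A ratio below 0 was found for 70 of the 75, against 61.3% of all genes. At least 2-fold lower were 2 of them, against 13.7% of all genes, and none was 2-fold higher, against 9.11%. The Rps genes, with a median of -0.57, were all 28 below 0. Of the Rpl genes, with a median of -0.49, 42 of 47 were. The SD over the 75 ratios was 0.32, beside a typical replicate-spot SD of 0.14 and a probe-to-probe SD of 0.26 within the 25 members that had several probes.

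That downward band was shared by other bright genes. In the signal range between the quartiles of the cytosolic members (levels of 6.78 to 8.95), 37 members had a median of -0.51 and 99 other genes a median of -0.52. The others were far more dispersed: their quartiles were -1.15 and 0.05, 73.7% of them were below 0, 29 lay 2-fold or more below 0 and 9 as far above it, whereas all 37 members in this range were below 0 and within an interquartile range of 0.36. The size of the shift depended on the processing. Relative to the median of all genes it was -0.32 as reported and also under median scaling, which moved all genes alike (cytosolic median -0.04, all genes 0.28). That relative value was 0.00 after quantile normalization (cytosolic median -0.06, 45 of 75 below 0), 0.10 after normexp background correction (median 0.03, 35 of 75 below 0) and -0.03 in the authors' deposited table (median -0.09, 42 of 71 below 0). Of the 9260 rows of the deposited table, only 5303 are probes of the uninjured array and 5301 of the day 21 array. The cause of the changes with processing was not tested.

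**Figure D1:**
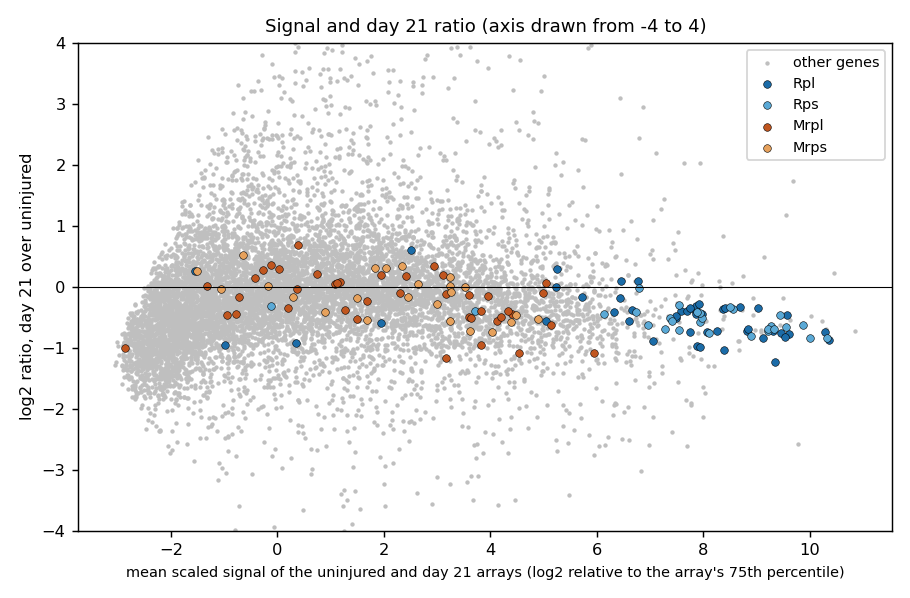
Log2 ratio of day 21 over uninjured (y axis, drawn from -4 to 4, so a few genes fall outside) against the mean scaled log2 signal of both arrays (x axis), 1 point a gene, other genes in grey and the 4 families in colour. The Rpl and Rps genes lie mostly at the bright end and just below 0 in a narrow band, and the Mrpl and Mrps genes lie at middle signals on both sides of 0.

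Rpl14, a large-subunit protein, had a level of 9.95 in the uninjured artery and 8.72 at day 21, the lowest ratio of the cytosolic set (-1.23 ± 0.14). Rpl27a followed with 8.90 and 7.86 (-1.04 ± 0.14). Rpl38, a small large-subunit protein known from the skeletal defects of mice that carry less of it, went from 8.44 to 7.44 (-0.99 ± 0.14), just inside the 2-fold limit. Each of these differences was several times its replicate-spot SD, a value set by signal and the same for each of these genes. Among the small-subunit genes Rps29 (10.42 and 9.58), Rps16 (10.74 and 9.90) and Rps15a (9.30 and 8.48) were the lowest, at -0.84, -0.84 and -0.81.

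At the other end stood Rpl22l1, the paralogue of the large-subunit protein Rpl22, with levels of 2.22 and 2.81 and the highest cytosolic ratio (0.59 ± 0.27, its 2 probes at 0.22 and 0.59). Rpl35a had 0.28, but its 2 probes had opposite signs (0.28 and -0.30). Rpl3l, a paralogue of Rpl3 known from striated muscle, had 0.26 ± 0.40 near the lower end of the signal range. Among the highest small-subunit ratios were -0.03 for Rps13 and -0.32 for Rps26, and no Rps gene was above 0. Rpl13 had the widest disagreement between probes, at -0.39 and -1.74.

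Some members with further roles were looked up after their values were seen. Rps6, the substrate of the S6 kinases, had levels of 9.67 and 8.97 (-0.70). Rpl5 and Rpl11, which together with 5S ribosomal RNA bind the p53 regulator Mdm2, had ratios of -0.18 and -0.75, and Rpl5 ranged from -0.69 to -0.18 over its 3 probes. Rps27a, which is made as a fusion with ubiquitin, had -0.72. The 4 values lie inside the range of the other members. Cytosolic members with a TOP-like run had a median day 21 ratio of -0.54 (52 genes) and those without one -0.35 (7 genes). For mitochondrial members the medians were -0.06 with a run (22 genes) and -0.23 without (31 genes).

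The mitochondrial set had no common shift at day 21. Of 66 members 65 were well above background on both arrays, with a median log2 ratio of -0.16 and quartiles of -0.50 and 0.08, close to the -0.20 of all genes, and 40 of 65 were below 0, against 61.3% of all genes. At least 2-fold lower were 4 of them, against 13.7% of all genes, and none was 2-fold higher, against 9.11%. Mrpl and Mrps genes had medians of -0.16 and -0.13. In their own middle signal range 33 members had a median of -0.09 and 3284 other genes one of 0.00. The cytosolic median was lower than the mitochondrial one by 0.36, a difference that was 0.00 after quantile normalization, -0.10 after normexp and 0.13 in the authors' deposited table.

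The 4 mitochondrial members past 2-fold were all large-subunit genes, 9.76% of the 41 Mrpl genes measured, a share below the 13.7% of all genes. Mrpl12, which also binds the mitochondrial RNA polymerase, had levels of 3.74 and 2.58 (-1.16 ± 0.25). Mrpl23 (5.08 and 3.99) and Mrpl48 (6.49 and 5.40) both had -1.09 ± 0.15, and Mrpl27, at -0.96 ± 0.19, was just short of the limit. Mrpl21, near the lower end of the signal, had -2.36 and -3.38 (-1.01 ± 0.71), a difference less than 2 times its technical SD. Mrpl45, which anchors the ribosome at the inner membrane, was the highest with levels of 0.05 and 0.73 (0.68 ± 0.34), followed by Mrpl42 (0.36 ± 0.41) and Mrpl44 (0.34 ± 0.23). Of the Mrps genes Mrps18c (-0.74), Mrps25 (-0.73) and Mrps24 (-0.58) were the lowest. The highest were Mrps18b (0.52), Mrps2 (0.33, with probes of opposite sign) and Mrps23 and Mrps31 (both 0.31).

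**Figure D2:**
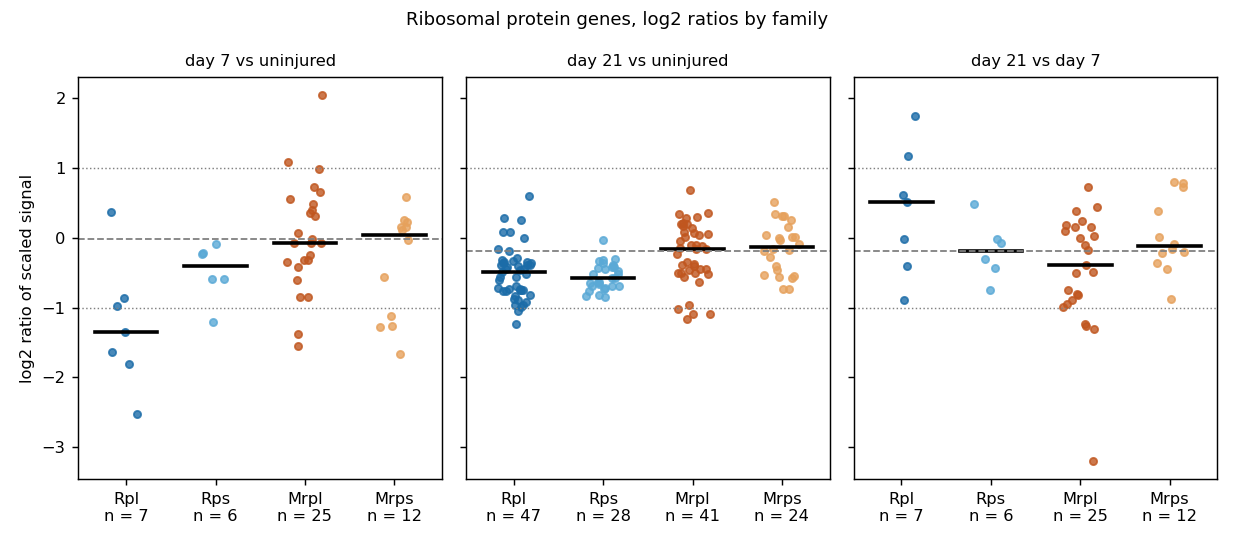
Log2 ratio of each member well above background on both arrays, by family (x axis, n is the number of genes) in the 3 comparisons, with bars at the family medians, dashed lines at the median of all genes and dotted lines at 2-fold. The Rpl and Rps medians lie at -0.49 and -0.57 at day 21, and at day 7 the 7 Rpl genes are the most spread downwards, with a median of -1.35.

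At day 7 the cytosolic members that could be measured were again mostly lower, and unevenly so. Of the 15 on shared probes 13 were well above background on both arrays, with a median log2 ratio of -0.86 beside -0.01 over all 5250 genes. Of these 13, 12 were below 0, against 50.7% of all genes. At least 2-fold lower were 5 (all genes: 16.3%) and none was 2-fold higher (all genes: 16.1%). The 7 Rpl genes had a median of -1.35 and the 6 Rps genes one of -0.41. Over the signal range that held 7 of these members, 34 other genes had a median of -1.05 and the members one of -0.59. After quantile normalization the cytosolic median was -0.28 with 8 of 13 below 0, or -0.18 relative to all genes. In the authors' deposited table, over a wider set of 71 cytosolic genes, it was -0.24 with 40 of 71 below 0. Relative to all genes this is 0.11, the opposite direction, and on the rows of that table on shared probes the relative value was 0.19. Of the 9260 rows of the deposited table, 9232 are probes of the day 7 array but only 5303 of the uninjured array. The 13 genes are a minority of the 78 cytosolic members, those whose probes both designs happen to carry.

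Rpl15, a core large-subunit protein, had the largest ratio, from 1.51 in the uninjured artery to -1.01 at day 7 (-2.52 ± 0.14), and stood at 0.74 at day 21. This is the dimmer of its probes. The brighter one, which only the older design carries, read 6.40 and 6.49 on its own scale in the uninjured and day 21 arrays (0.09), with a sign opposite to that of the shared probe. Rpl24, which sits at the interface of the subunits, went from 6.37 to 4.57 at day 7 (-1.80 ± 0.14) and read 5.74 at day 21. In the authors' deposited table the day 7 ratio of Rpl24 was 0.36, above 0. In the order uninjured, day 7, day 21, Rpl37a read 9.43, 7.80 and 8.41, Rpl9 7.82, 6.47 and 6.98, and Rps4x, the X-linked form of a small-subunit protein, 6.33, 5.13 and 5.62. All 5, picked by their low day 7 ratios, were lowest at day 7, with day 21 between it and the uninjured level. Of all 13 members only these 5 were lower at day 7 than at day 21.

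Other cytosolic members did not share that order. Rpl14 read 8.59, 7.61 and 7.21, lowest at day 21. Rpl7 (7.26, 6.40 and 6.38) and Rps14 (5.0, 4.41 and 4.40) were level between days 7 and 21, with differences of -0.01 that are below the technical SD. Rps3a (8.19, 8.10 and 7.36) had a day 7 ratio of -0.09 and was lowest at day 21. Rps18 (6.27, 6.04 and 5.61) and Rps21 (6.88, 6.29 and 6.21) had day 7 ratios of -0.23 and -0.59. Rpl10, which joins the large subunit late in its assembly, was the exception at day 7, with 5.77, 6.15 and 5.26, a ratio of 0.37 ± 0.14. Over these 13 genes the interquartile range was 1.12 for day 7 and 0.21 for day 21 against the same uninjured array.

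**Figure D3:**
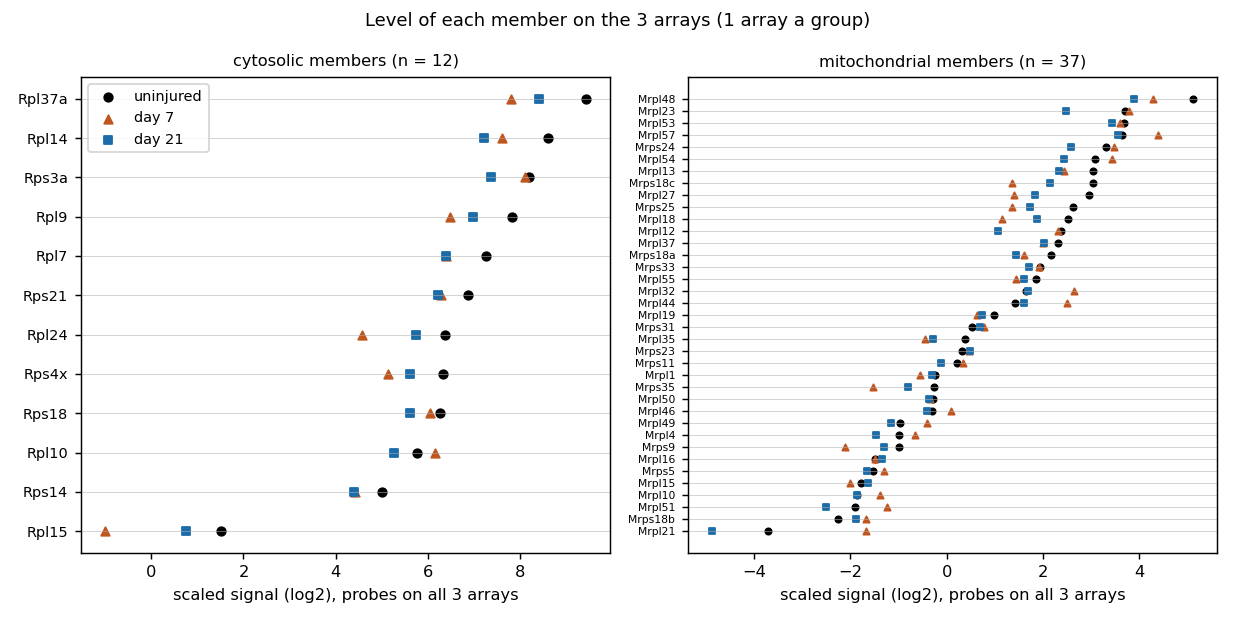
Scaled log2 signal (x axis, relative to the 75th percentile of shared probes) of 12 of the 13 cytosolic members (1 is not drawn) and the 37 mitochondrial members well above background on all 3 arrays, sorted by their uninjured level, with 1 symbol for each array. The uninjured point is the highest for 11 of the 12 cytosolic genes drawn, Rpl10 being the exception, while the order varies among the mitochondrial genes.

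The mitochondrial members at day 7 had a median near that of all genes and moved in both directions. Of 40 on shared probes 37 were well above background on both arrays, with a median of -0.04 (Mrpl -0.07, Mrps 0.04). Past the 2-fold limit were 6 lower and 2 higher genes. The lower share, 16.2%, is that of all genes (16.3%), and the higher share, 5.41%, is below it (16.1%), so the genes that follow are described without being set apart from other genes. In the same order of arrays Mrps18c read 3.03, 1.36 and 2.15 (day 7 ratio -1.67 ± 0.10). Mrpl27 read 2.95, 1.40 and 1.84 (-1.55 ± 0.13), Mrpl18, a relative of the 5S RNA-binding protein Rpl5, 2.53, 1.15 and 1.87 (-1.38 ± 0.13), and Mrps25 2.62, 1.36 and 1.74 (-1.26 ± 0.13). Mrps35 read -0.25, -1.53 and -0.81, and Mrps9 -0.99, -2.11 and -1.31. These 6 genes, picked by their low day 7 ratios, were lowest at day 7, and at day 21 each lay between the other arrays. Of all 37 members 14 were lower at day 7 than at day 21.

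Mrpl44, which carries a ribonuclease III-like fold, was higher at day 7, with 1.42, 2.51 and 1.61 (1.09 ± 0.18), and Mrpl32, with 1.65, 2.64 and 1.70 (0.99 ± 0.13), lay just inside the limit. Mrpl21 read -3.72, -1.68 and -4.88, a day 7 ratio of 2.04 ± 0.53, higher at day 7 and lower at day 21 than in the uninjured artery. Its day 7 ratio was 0.11 after normexp and 0.82 under own-design scaling (each 75th percentile over all probes of that array), both short of 2-fold. Mrps14 and Mrps22 were not well above background at day 7 and had only approximate bounds there. These were 6.41-fold lower for Mrps14 and 2.80-fold lower for Mrps22 than in the uninjured artery. The Mrps14 bound is simply the ratio to its undetected day 7 reading. The shared probe of Mrps14 is a dim one, at -1.62 in the uninjured artery. The gene's brightest probe, on the older design only, read 3.51 there on its own scale and 3.52 at day 21. The replicate-spot SDs of the day 7 log2 ratios of Mrps14 and Mrps22 were 1.3 and 1.4, so the bounds are not firm minimum changes. The other genes stayed within 2-fold, with Mrps18b (0.58), Mrps31 (0.25) and Mrps5 (0.23) the highest of the Mrps genes and Rps3a (-0.09) and Rps18 (-0.23) among the highest of the Rps genes.

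Between the days after injury, day 21 against day 7, the cytosolic members had a median of -0.01 (13 genes) and the mitochondrial ones of -0.18 (37 genes), beside -0.19 over all 5642 genes. Below 0 were 8 of the 13 and 23 of the 37, against 58.3% of all genes. Rpl15 (1.75 ± 0.24) and Rpl24 (1.17 ± 0.16) were at least 2-fold higher at day 21 (all genes: 10.7%), followed by Rpl37a (0.62), Rpl9 (0.51) and Rps4x (0.49), and no cytosolic member was 2-fold lower (all genes: 20%). The lowest cytosolic ratios were those of Rpl10 (-0.89), Rps3a (-0.75) and Rps18 (-0.43). At least 2-fold lower at day 21 were 4 mitochondrial members, all Mrpl genes (16% of the 25 measured, all genes: 20%). Mrpl21 had -3.20 ± 0.58. Mrpl23 read 3.79 at day 7 and 2.48 at day 21 (-1.31 ± 0.16), Mrpl12 2.31 and 1.07 (-1.24 ± 0.25), and Mrpl51 -1.25 and -2.50 (-1.26 ± 0.29). Scaled on the shared probes, Mrpl12 and Mrpl23 differed little between the uninjured and day 7 arrays (ratios of -0.07 and 0.07). On that scale they were lower on the day 21 array alone of the 3. Under own-design scaling their day 21 against day 7 ratios turned to 0.13 and 0.063, so this order of the arrays depends on the scaling. From day 7 to day 21 the approximate bounds were 4.98-fold higher for Mrps14 and 3.01-fold higher for Mrps22, again not firm minimum changes. The highest Mrpl ratios were those of Mrpl18 (0.73), Mrpl27 (0.44) and Mrpl15 (0.38), the highest Mrps ratios those of Mrps9 (0.80), Mrps18c (0.78) and Mrps35 (0.72), and the lowest Mrps ratios those of Mrps24 (-0.88), Mrps11 (-0.44) and Mrps5 (-0.36).

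Paralogues offered comparisons within the set. At day 21 Rpl22 read 5.32 in the uninjured artery and 4.75 at day 21 (-0.56), while Rpl22l1 had 0.59, a difference between their ratios of 1.16 ± 0.31. Rpl3 had 0.00 and Rpl3l 0.26, a difference of 0.26 ± 0.43 that is below its technical SD. Rpl36a and Rpl36al1 had -0.56 and -0.42, and Rpl39 and Rpl39l1 -0.35 and -0.96. The 3 Mrps18 proteins, which take different places in the mitochondrial ribosome, had day 21 ratios of -0.56 (Mrps18a), 0.52 (Mrps18b) and -0.74 (Mrps18c), and day 7 ratios of -0.56, 0.58 and -1.67, the latter 2 differing by -2.25 ± 0.33. Both comparisons use the same uninjured array. Cytosolic ribosomal protein genes have many processed copies in the genome, so a probe may also bind transcripts of a near-identical copy, and values of the copies such as Rpl36al1 and Rpl39l1 are uncertain.

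Parts of the ribosomes outside the symbol rule were read from a list. All 7 other cytosolic parts were below 0 at day 21 and none past 2-fold, with a median of -0.46, among them the stalk protein Rplp1 (-0.69). Of 6 other mitochondrial parts, with a median of -0.47, the gene of the small-subunit protein Ptcd3 read 4.52 in the uninjured artery and 6.93 at day 21 (2.41), and that of Chchd1 5.04 and 3.87 (-1.17). At day 7 Chchd1 read 1.33 against 3.68 (-2.35), and Ptcd3 3.49 against 3.16 (0.33).

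Lists of the genes that build and run ribosomes were read in the same way. At day 21 the shares of all genes past 2-fold were 9.11% higher and 13.7% lower, and at day 7 16.1% and 16.3%, so most of the counts that follow are near or below those of all genes. Of 39 assembly genes measured at day 21 none was past 2-fold, with a median of 0.08. At day 7, 2 of 26 were higher (Polr1a, the largest subunit of RNA polymerase I, at 1.52, and Lsg1 at 1.02) and 2 lower (Nolc1 at -1.43 and fibrillarin, Fbl, at -1.32), with a median of 0.15. Of 35 cytosolic translation factors and kinases at day 21 the kinase gene Rps6ka1 was higher (3.55). The elongation factor gene Eef1a2, a form known from striated muscle and nerve, was lower (-2.68). Of the striated muscle markers 2 of 4 were at least 2-fold lower at day 21, and their part in the Eef1a2 ratio was not tested. The 35 genes had a median of -0.22, with 24 of 35 below 0 (all genes: 61.3%). Several bright factors, named after their values were seen, lay within the range of the cytosolic ribosomal genes. Among them were Eif1 (-0.69), Eef1d (-0.60), Eef1g (-0.49) and Tpt1 (-0.48, with probes of opposite sign). Pabpc1 (0.53) and Eef1a1 (-0.13) were above the median of the cytosolic ribosomal genes. At day 7, 3 of 20 were higher (Rps6ka1 3.73, Eif2s2 1.19 and Eif3c 1.15) and 7 lower (Eif4a2 -2.83, Eif4e -1.68, Eif2s3 -1.60 and Rps6kb1 -1.55 the furthest). The 7 of 20 lower are a larger share than the 16.3% of all genes, a difference that was not tested. Of genes for mitochondrial translation and gene expression, 1 of 24 was lower at day 21 (Ddx28, -1.04). At day 7, 2 of 14 were higher (Mtrf1l 1.44 and Mtg2 1.34) and 2 lower (the nuclear receptor gene Esrra -2.01 and Tfb2m -1.34). At day 21 against day 7, where 10.7% of all genes were higher and 20% lower, 1 of 26 assembly genes was higher and 2 lower, 3 of 20 translation factors were higher and 1 lower, and 3 of 16 genes for mitochondrial translation were higher and 4 lower.

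**Figure D4:**
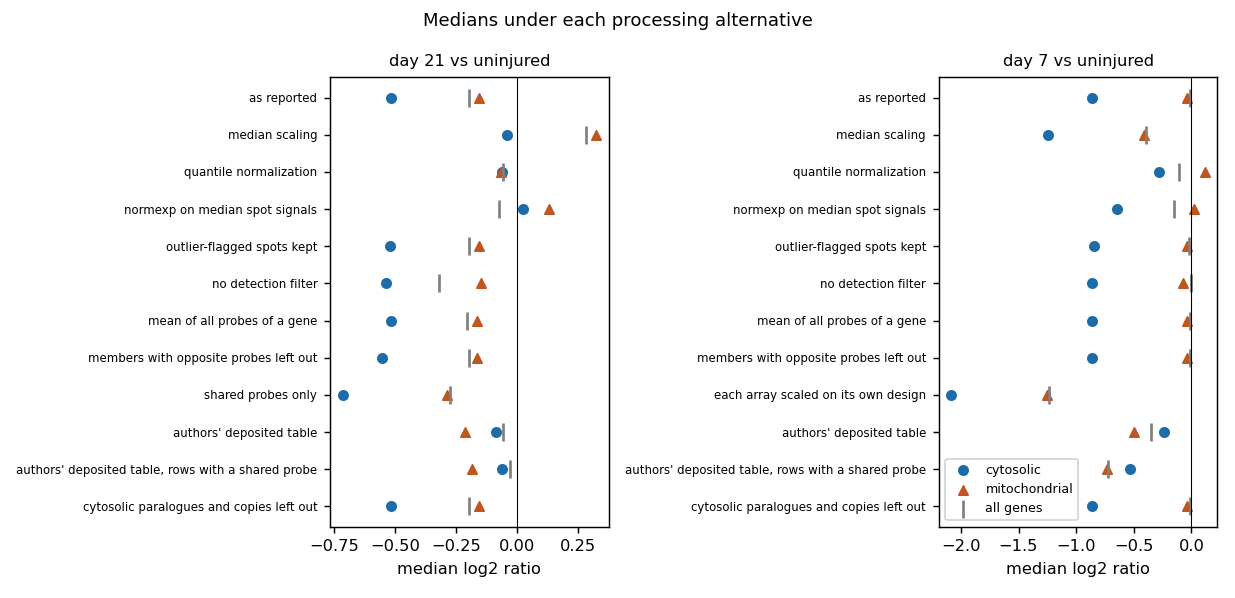
Median log2 ratio (x axis) of cytosolic members (circles), mitochondrial members (triangles) and all genes (bars) at day 21 (left) and day 7 (right) against uninjured, under each way of processing (y axis). The day 21 cytosolic median lies at -0.52 as reported and between -0.09 and 0.03 under median scaling, quantile normalization, normexp and the authors' deposited table, and at day 7 it stays below 0 in every setting drawn, from -2.08 to -0.24, but lies above the median of all genes in both versions of the authors' deposited table.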

How the data were processed

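The 3 arrays were one-colour Agilent arrays of Cy3-labelled total RNA. The deposited intensity values come from Agilent Feature Extraction (10.7.3.1, and 11.0.1.1 for day 7), background-subtracted within each array, per the file headers. A table of log2 values deposited by the authors has 9260 rows (column medians 7.64, 7.62 and 7.64). Of these rows, 9232 are probes of the day 7 array, but only 5303 and 5301 are probes of the uninjured and day 21 arrays. Across the matched probes of each array, its values had an r of 0.947 to 0.968 with the log2 scanner signals. This r compares levels within an array and does not check ratios between arrays. The normalization and centring of these deposited values are not given in the sources used here.

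Control spots and outlier-flagged spots (0.242% to 1.46%) were left out, spots of a probe averaged on the log2 scale, and the 75th percentile subtracted. Probes were named by RefSeq accession (GRCr8, names only): 17514 of the 40989 unflagged probes of the older design and 8041 of the 10583 unflagged shared ones matched. A gene was its brightest probe, and detected where over 50% of that probe's spots were well above background. A bound divides the bright signal by the gene's dim one, or by the dimmest detected probe of that array if this is higher. It is an estimate and not a firm limit. Of the 144 members, 142 were on the older design, 140 on the day 7 design and 55 on shared probes. Genes named were the 3 highest and lowest of each family, those past 2-fold or with such a bound, and paralogues; from each related list, up to 4 each way. Members and lists were chosen with earlier results of these data known. A few genes are not reported here by name. No per-sample column was left unused. The steps were tested on simulated data. Python 3.11.15, R 4.3.3 and limma 3.58.1 (normexp, offset 50) were used; 9 alternatives were planned and 3 added after the data were seen. The number of arrays limits the precision.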

Additional observations from a re-analysis of the deposited data

Results flagged for a closer look

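Mrpl21 was higher at day 7 (2.04) and lower at day 21 (-1.16) than in the uninjured artery on the same probe, scaled on shared probes. The day 7 value was 0.11 after normexp and 0.82 under own-design scaling, so that the call is lost under both. The difference was not tested, both values share the uninjured array, and the signal was near the lower end of the range on all 3 arrays.

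Probes of 2 members exist only on the day 7 design, so no ratio could be formed. The probe of Rpl27l2 had a scaled log2 signal of -2.66 there. The 2 probes of Rps4y2, a paralogue of Rps4x, had -2.18 and 3.90, and disagree by far more than replicate spots do. All were well above background.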

How the results depend on the processing

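No paired analysis was possible because each group has 1 array, and for the same reason no array could be left out. In the order day 7 cytosolic, day 7 mitochondrial and their difference, the values reported were -0.86, -0.04 and -0.83. Median scaling gave -1.24 and -0.41, scaling each array on its own design -2.08 and -1.26, quantile normalization -0.28 for cytosolic members and -0.40 for the difference, normexp -0.65 for cytosolic members, the authors' deposited table -0.24, -0.50 and 0.26, and its rows on shared probes -0.53, -0.74 and 0.20. For day 21 the values reported were -0.52, -0.16 and -0.36. Median scaling gave -0.040 and 0.32, quantile normalization -0.063 for cytosolic members and 0.0033 for the difference, normexp 0.026 and shared probes only -0.72 for cytosolic members, the authors' table -0.085 for cytosolic members and 0.13 for the difference, and its rows on shared probes -0.063 and 0.12. For day 21 against day 7 the values reported were -0.01, -0.18 and 0.17. Median scaling gave 0.45 and 0.28, own-design scaling 1.36 and 1.19, normexp 0.18 for cytosolic members, the authors' values 0.37 for mitochondrial members and -0.26 for the difference, and its rows on shared probes gave 0.20, 0.69 and -0.49. Median scaling and own-design scaling shift all genes alike and leave the differences as they were; the cause of the other changes was not tested. Relative to the median of all genes, the cytosolic median turned from -0.85 to 0.11 at day 7 in the authors' table (0.19 on shared probes), and from -0.32 to 0.10 at day 21 under normexp.

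Of 25 single values past 2-fold, 19 kept their sign under every alternative that could be computed and 5 also stayed past 2-fold: Mrpl27, Mrps18c and Rpl15 at day 7, and Mrpl21 and Rpl15 at day 21 against day 7. Own-design scaling turned Mrpl44 at day 7 (-0.13) and Mrpl12, Mrpl23 and Mrpl51 at day 21 against day 7 (0.13, 0.063 and 0.11). Rpl24 was 0.36 at day 7 and -0.35 at day 21 against day 7 in the authors' table, both with all rows and with shared rows. The planned normexp on mean spot signals was not run, because the analysed files give median signals, which were used instead. Signal over background limits Mrpl3, Mrpl21, Mrps14, Mrps22 and Rps12l4.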
